A study of Rattus norvegicus with 9 samples.

Results

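Integrin subunits are the receptor chains through which cells grip the surrounding matrix, and 10 of them are described here across replicative passage and fluid shear in rat cartilage progenitor cells. The genes were taken by symbol from the table of 34267 genes: Itga1, Itga2, Itga3, Itga5, Itga7, Itga8, Itga11, Itgav, Itgb1 and Itgb3. Each symbol had 1 row, and all 10 passed the filter of at least 1 FPKM in at least 3 libraries that 13059 genes passed. FPKM is a fragment count scaled by gene length and by a factor per library, so levels can be set side by side between genes. The library factors here do not follow plain library totals.

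An integrin is a pair of 1 alpha and 1 beta chain that spans the membrane. The alpha chain largely sets the ligand: collagen for alpha1, alpha2, alpha10 and alpha11, laminin for alpha3, alpha6 and alpha7, and proteins with the short RGD motif, such as fibronectin and vitronectin, for alpha5, alpha8 and alphaV. The beta chain binds talin and kindlin, which tie the receptor to actin at focal adhesions. In cartilage, integrins hold chondrocytes to collagen and fibronectin and take part in how these cells sense load.

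The P9 libraries came from cells grown to passage 9, the study's model of replicative senescence. The FFSS libraries came from passage 3 cells under flow fluid shear stress, the study's model of mechanical degeneration, and the P3 libraries from passage 3 cells without it, the control. All 9 libraries, 3 per group, hold polyadenylated RNA of wild-type primary cultures from rat condylar cartilage. The strain, the age of the animals, and the strength and duration of the flow are not given in the sources used here. Nothing in the labels says whether replicates were separate animals or cultures, so p-values measure the spread between these libraries, which may be technical. In these bulk samples, fewer cells of a type and less RNA per cell cannot be told apart.

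Between 13264930 and 15323790 fragments per library were assigned to genes. On a gene of 1 kilobase, 1 fragment equals 0.0619 to 0.0733 FPKM, and a count of 0 would allow 3 fragments or 0.186 to 0.220 FPKM; these limits cover counting error only. Markers of cartilage were uneven. Acan, the aggregating proteoglycan of cartilage, held 609, 576 and 499 FPKM at P9, 29.3, 48.2 and 43.2 FPKM under FFSS, and 128, 135 and 122 FPKM at P3. Col11a1, a minor fibril collagen of cartilage, held 194, 199.5 and 307 FPKM at P9, 405, 523 and 507 FPKM under FFSS, and 843, 918 and 809 FPKM at P3. The groups did not overlap for either gene. Col2a1, the main collagen of hyaline cartilage, had 0, 0.0289 and 0.191 FPKM at P9, 0.118, 0.378 and 0.0297 FPKM under FFSS, and 0.703 to 1.06 FPKM at P3. Sox9, the chondrogenic transcription factor, was present in every library, at 5.01 to 7.997 FPKM at P9, 9.81 to 15.3 FPKM under FFSS and 4.06 to 4.79 FPKM at P3. The cartilage matrix gene Matn1 was at 0 in all 9 libraries. FFSS replicate 1 was unlike the rest of its group. It was the lowest FFSS library for 7 of the 10 subunits, the highest for 2 and in the middle for 1, and member results that rest on it are given with and without it.

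Of the 4 subunits called higher at P9 below, 3 have a promoter in the RefSeq table, and these are printed because the subunits changed together; promoters matched 8 of the 10 symbols. Each window runs 5′ to 3′ on the gene's strand, from 250 bases before to 50 bases after the start, in the GRCr8 build, and capitals mark the motif matches described next.
Itga1: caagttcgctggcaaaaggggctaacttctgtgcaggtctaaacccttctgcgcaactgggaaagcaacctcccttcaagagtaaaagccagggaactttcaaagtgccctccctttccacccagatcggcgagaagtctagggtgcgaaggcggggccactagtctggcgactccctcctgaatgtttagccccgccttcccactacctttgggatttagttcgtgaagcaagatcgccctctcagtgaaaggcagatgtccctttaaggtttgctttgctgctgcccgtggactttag
Itga3: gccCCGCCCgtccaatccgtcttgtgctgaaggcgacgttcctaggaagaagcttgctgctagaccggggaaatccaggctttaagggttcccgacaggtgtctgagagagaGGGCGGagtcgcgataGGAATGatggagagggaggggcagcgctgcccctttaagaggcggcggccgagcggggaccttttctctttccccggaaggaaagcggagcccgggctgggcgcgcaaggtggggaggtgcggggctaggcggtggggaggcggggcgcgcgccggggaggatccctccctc
Itga8: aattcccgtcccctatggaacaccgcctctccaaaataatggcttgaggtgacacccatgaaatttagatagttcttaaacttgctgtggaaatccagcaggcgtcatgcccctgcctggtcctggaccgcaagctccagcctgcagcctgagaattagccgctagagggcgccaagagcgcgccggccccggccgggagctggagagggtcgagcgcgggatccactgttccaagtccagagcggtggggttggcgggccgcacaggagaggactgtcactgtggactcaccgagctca
The windows lie on the minus strand of chromosome 2 from 48545234 to 48545533 for Itga1, of chromosome 10 from 80518852 to 80519151 for Itga3, and of chromosome 17 from 80410584 to 80410883 for Itga8. The letters searched on both strands were TGANTCA for AP-1, GGAATG for TEAD and GGGCGG for Sp1, and the CArG box bound by serum response factor was searched as well. The Itga3 window held 1 TEAD match at bases 129 to 134 and 2 Sp1 matches at bases 4 to 9 and 113 to 118, and these did not overlap. The Itga1 and Itga8 windows held none of the 4 motifs. Among 33469 rat promoter windows of this length, 7.33% held the AP-1 letters, 14.2% the TEAD letters, 33.1% the Sp1 letters and 1.64% the CArG box. Letters in a window are a description and no evidence of binding.

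At P9 the collagen receptor chain Itga1, the laminin receptor chains Itga3 and Itga7 and the RGD receptor chain Itga8 were higher than at P3, and Itgb3, the beta chain of the vitronectin receptor, was lower. In this comparison 4 of the 10 subunits were called higher, beside 5.39% of all genes tested, and 1 lower, beside 4.44%, which makes 5 in either direction beside 9.83%. The 10 subunits and the gene lists below were chosen with earlier results of these data known. Counts set beside such shares are therefore a description, here and below. A call means a Benjamini-Hochberg adjusted p under 0.05 in limma over all genes tested. The median difference of the 10 was 0.01 on the log2(FPKM + 1) scale, against -0.00262 for all genes tested. The same subunits were those whose 3 P9 and 3 P3 libraries did not overlap, 4 above and 1 below, where 20.9% and 19.1% of all genes did so.

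Itgb3 showed the strongest change among the 10. It lies on the plus strand of chromosome 10 from 92667869 to 92783410 in Rnor_6.0, the build named for the deposited table. P9 libraries held 0.644, 0.384 and 0.388 FPKM, resting on 21, 14 and 15 fragments, against 8.77, 7.46 and 10.1 FPKM in P3 libraries. Every P9 library was far below every P3 library. The mean was 0.472 ± 0.149 FPKM at P9 and 8.78 ± 1.33 FPKM at P3 (SD, n = 3 each), 18.6-fold lower at P9. The difference was -2.73 ± 0.315 on the log2(FPKM + 1) scale (SE, adjusted p = 0.00112), a scale that understates the change of a gene this low; it was -3.98 with a pseudocount of 0.1.

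Itgav, the alpha chain that pairs with beta3, gave no such difference. Its locus is on the plus strand of chromosome 3 from 71114100 to 71202411. P9 libraries held 66.7, 54.9 and 56.0 FPKM, against 59.9, 69.3 and 53.8 FPKM in P3 libraries. The groups overlapped, and the difference was -0.04 with a 95% interval of -0.71 to 0.63 (adjusted p = 0.961). The ratio of Itgb3 to Itgav FPKM was 0.00786 ± 0.00156 at P9 and 0.147 ± 0.0402 at P3 (SD, n = 3 each). Itgb5, another partner of alphaV, held 135.6 ± 22.3 FPKM at P9 and 133 ± 13.6 FPKM at P3.

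Both laminin receptor chains were higher at P9. Itga3, on the minus strand of chromosome 10 from 82855613 to 82887497, encodes the alpha chain of a receptor for epithelial and basement membrane laminins. P9 libraries held 31.1, 29.3 and 34.3 FPKM, against 14.2, 16.3 and 11.8 FPKM in P3 libraries. The lowest P9 library was above the highest P3 library, and the difference was 1.12 ± 0.134 (SE, adjusted p = 0.00129).

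Itga7, best known as the laminin receptor chain of skeletal and smooth muscle, lies on the plus strand of chromosome 7 from 3355116 to 3384675. P9 libraries held 11.6, 11.5 and 8.63 FPKM, against 1.66, 1.75 and 1.08 FPKM in P3 libraries. The groups were well apart, with means of 10.6 ± 1.69 FPKM at P9 and 1.497 ± 0.360 FPKM at P3 (SD, n = 3 each), and the difference was 2.21 ± 0.299 (SE, adjusted p = 0.00234). Mettl7b overlaps the end of Itga7 on the other strand, and it held at most 0.115 FPKM in any library.

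Itga1 encodes the alpha chain of the alpha1beta1 collagen receptor. It lies on the minus strand of chromosome 2 from 47127219 to 47281421, and 30257 bases separate it from Itga2. P9 libraries held 62.9, 42.2 and 39.2 FPKM, against 19.2, 21.3 and 17.9 FPKM in P3 libraries. P9 replicate 1 was the highest, yet all P9 libraries exceeded all P3 libraries, and the difference was 1.23 ± 0.175 (SE, adjusted p = 0.00300). Pelo lies within Itga1 on the same strand at 28.3 to 59.4 FPKM, and how reads shared between them were counted is not given in the sources used here.

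Itga8, the alpha chain that binds nephronectin and other RGD proteins, lies on the minus strand of chromosome 17 from 79321900 to 79676499. P9 libraries held 56.3, 44.8 and 33.3 FPKM, against 13.0, 17.6 and 10.3 FPKM in P3 libraries. The groups did not overlap, but P9 values spread widely, and the difference was 1.64 ± 0.343 (SE, adjusted p = 0.0170). The call was lost without P9 replicate 1 (adjusted p = 0.0757), P9 replicate 2 (0.0710), P3 replicate 1 (0.0667) or P3 replicate 3 (0.0780), while the other 4 calls held without any 1 library.

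The most abundant subunits gave no call between P9 and P3. Itgb1, the common partner of the collagen and laminin alpha chains and of alpha5 and alpha8, held 1017, 841 and 745 FPKM in P9 libraries, against 877, 978 and 828 FPKM in P3 libraries. The groups overlapped, with a difference of -0.05 and a 95% interval of -0.54 to 0.43 (adjusted p = 0.919). Itga11, the alpha chain of a fibroblast receptor for fibrillar collagen, held 189, 179 and 240.4 FPKM in P9 libraries, against 229, 278 and 181 FPKM in P3 libraries, with a difference of -0.17 and an interval of -0.66 to 0.33 (adjusted p = 0.715). These libraries also overlapped.

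Itga5, the alpha chain of the classical fibronectin receptor, held 54.9, 54.1 and 51.6 FPKM in P9 libraries, against 52.2, 55.7 and 46.8 FPKM in P3 libraries. Those values overlapped with little spread, and the interval of the difference was -0.19 to 0.30 (adjusted p = 0.815). Itga2, a collagen receptor chain, held 2.85, 2.11 and 4.32 FPKM in P9 libraries, against 5.11, 6.37 and 3.86 FPKM in P3 libraries. P9 replicate 3 lay within the P3 range, and the difference was -0.59 with an interval of -1.34 to 0.15 (adjusted p = 0.331). Itgb1 lies on the plus strand of chromosome 19 from 61677542 to 61725535, Itga11 on the plus strand of chromosome 8 from 67615635 to 67683973, and Itga5 on the minus strand of chromosome 7 from 144970444 to 144993652.

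**Figure D1:**
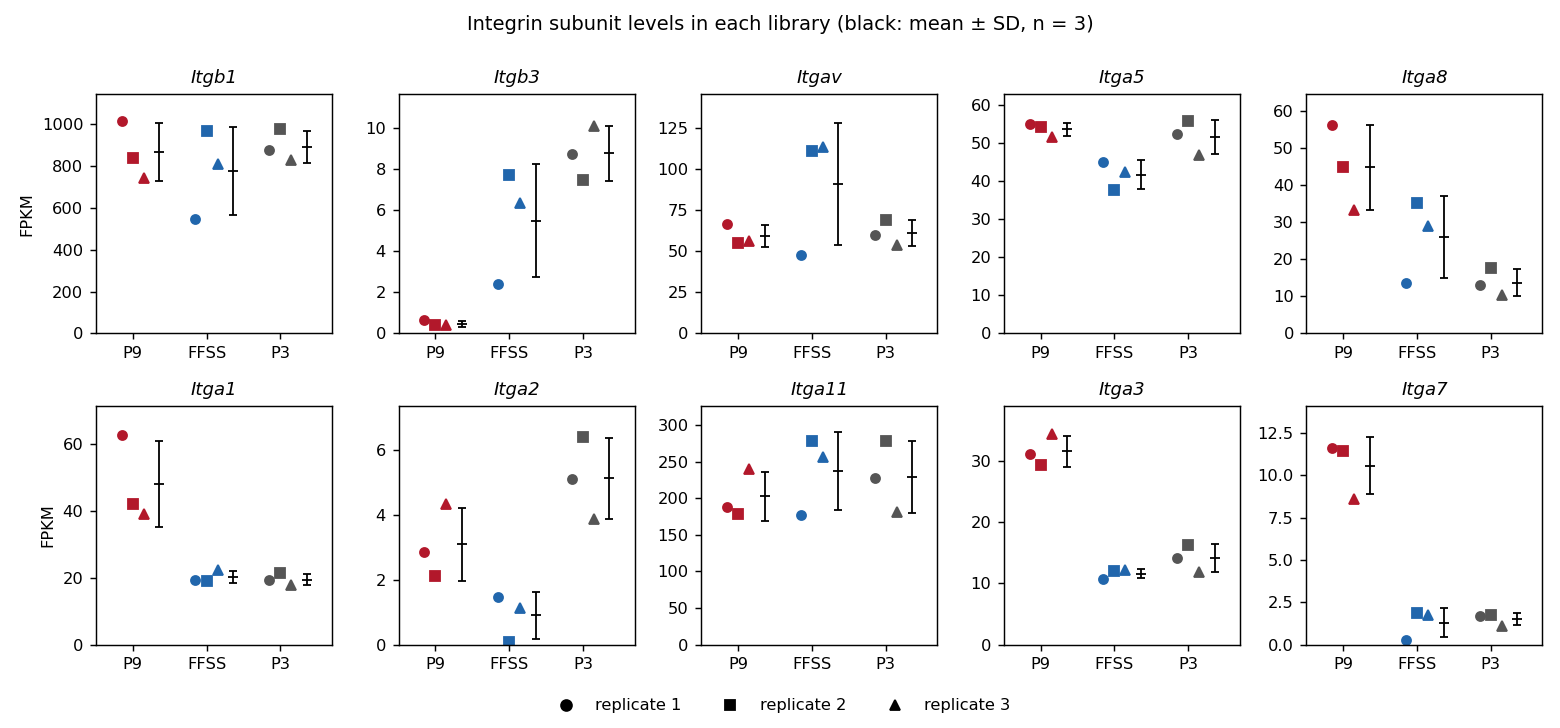
Level of each of the 10 integrin subunits in FPKM (vertical axis, from 0, 1 panel per gene) in every P9, FFSS and P3 library; shapes mark the replicate and black bars the mean ± SD of 3 libraries. Itgb3 is near 0 in the P9 libraries (0.384 to 0.644 FPKM), Itga3 and Itga7 are higher in all 3 P9 libraries than in any other, and FFSS replicate 1 is the lowest FFSS library for 7 genes.

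Under shear the collagen receptor chain Itga2 was lower, and no other subunit passed the test with all libraries. In FFSS against P3 cells, 1 of the 10 subunits was called lower, beside 10.4% of all genes tested, and 0 higher, beside 11.4%, so that 1 of 10 was called in either direction beside 21.8%. At an unadjusted p under 0.05 the limma counts were 1 higher and 2 lower, with no share of all genes at that threshold to set beside them. After adjustment, voom on the recovered fragments gave 0 higher and 1 lower, where 2825 of 13059 genes were called in either direction. The libraries of 2 subunits lay wholly below P3, where 22.3% of all genes did so, and 0 lay wholly above, where 20.1% did. The median difference of the 10 was -0.22, against -0.01 for all genes tested. This comparison shares its P3 libraries with the passage comparison.

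Itga2 was the subunit called lower. It lies on the minus strand of chromosome 2 from 47000323 to 47096961. FFSS libraries held 1.46, 0.0890 and 1.13 FPKM, against 5.11, 6.37 and 3.86 FPKM in P3 libraries. FFSS replicate 2 was the lowest, with 5 fragments and an exact Poisson 95% interval of 0.0289 to 0.208 FPKM that covers counting error only. The mean was 0.893 ± 0.715 FPKM under FFSS and 5.12 ± 1.26 FPKM at P3 (SD, n = 3 each), 5.73-fold lower under FFSS. The difference was -1.75 ± 0.330 (SE, adjusted p = 0.00829) and was -2.84 with a pseudocount of 0.1.

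Itgav held 47.9, 111 and 114 FPKM in FFSS libraries, against 59.9, 69.3 and 53.8 FPKM in P3 libraries. FFSS replicate 1 lay below all P3 libraries and the other FFSS libraries far above them, and the difference was 0.48 with an interval of -0.20 to 1.15 (adjusted p = 0.276). Without FFSS replicate 1 it was 0.88 (adjusted p = 0.00168). Itga8 held 13.7, 35.1 and 28.9 FPKM in FFSS libraries, against 13.0, 17.6 and 10.3 FPKM in P3 libraries. FFSS replicate 1 lay within the P3 range and the other FFSS libraries above it, and the difference of 0.81 (adjusted p = 0.122) became 1.20 without that library (adjusted p = 0.00747). Without FFSS replicate 1, Itgav and Itga8 were called higher and Itga2 and Itga5 lower, 4 of 10 in either direction beside 39.0% of all genes tested.

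Itga5 held 45.0, 37.6 and 42.3 FPKM in FFSS libraries, against 52.2, 55.7 and 46.8 FPKM in P3 libraries. All FFSS libraries were below all P3 libraries by a small margin, and the difference of -0.30 missed the threshold (adjusted p = 0.0788); it was -0.36 without FFSS replicate 1 (adjusted p = 0.0310). Itgb3 held 2.41, 7.72 and 6.36 FPKM in FFSS libraries, against 8.77, 7.46 and 10.1 FPKM in P3 libraries. FFSS replicate 2 lay within the P3 range and the other FFSS libraries below it, with a difference of -0.69 and an interval of -1.41 to 0.03 (adjusted p = 0.145).

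Of the subunits called between P9 and P3, Itga1, Itga3 and Itga7 overlapped with P3 under shear. Itga1 held 19.4, 19.2 and 22.3 FPKM in FFSS libraries, against 17.9 to 21.3 FPKM at P3, with an interval of the difference of -0.34 to 0.45. Itga3 held 10.7, 11.9 and 12.1 FPKM in FFSS libraries, against 11.8 to 16.3 FPKM at P3, with an interval of -0.56 to 0.05. Itga7 held 0.291, 1.84 and 1.74 FPKM in FFSS libraries, against 1.08 to 1.75 FPKM at P3, and its low value in FFSS replicate 1 rests on 22 fragments. The adjusted p-values were 0.835 for Itga1, 0.196 for Itga3 and 0.663 for Itga7.

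Itgb1 held 549.7, 969.9 and 811 FPKM in FFSS libraries, against 828 to 978 FPKM at P3. Itga11 held 177, 279 and 257 FPKM in FFSS libraries, against 181 to 278 FPKM at P3. Both overlapped with P3, FFSS replicate 1 was the lowest library of the 9 for each, and the adjusted p-values were 0.450 for Itgb1 and 0.898 for Itga11.

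**Figure D2:**
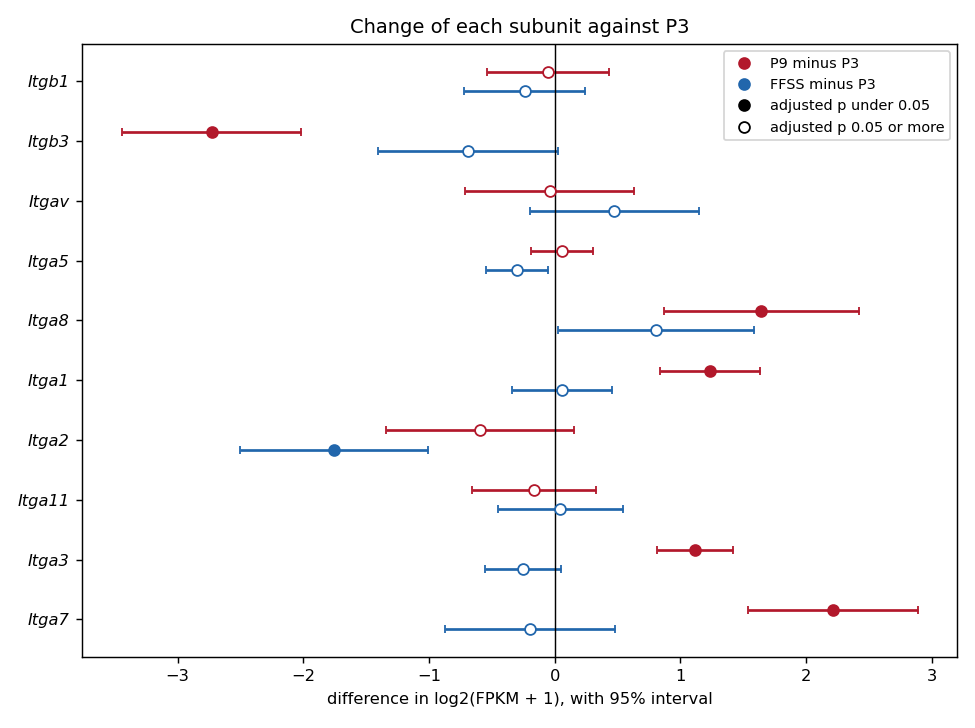
Difference of each subunit from P3 in log2(FPKM + 1) units (horizontal axis) for P9 minus P3 in red and FFSS minus P3 in blue, with 95% intervals from limma over all 9 libraries. Filled points have an adjusted p under 0.05; Itgb3 at -2.73 and Itga7 at 2.21 are the farthest from 0 for P9, and Itga2 at -1.75 is the one filled point for FFSS.

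Set directly against each other, P9 and FFSS cells differed in 6 of the 10 subunits, beside 31.4% of all genes tested. Itga1, Itga2, Itga3, Itga5 and Itga7 were called higher at P9 than under FFSS, 5 of 10 beside 16.1% of all genes tested, and Itgb3 lower, 1 of 10 beside 15.3%. The differences were 1.18 for Itga1 (adjusted p = 0.00152), 1.37 for Itga3 (0.000176) and 2.41 for Itga7 (0.000632). Itgb3 differed by -2.04 (adjusted p = 0.00183). These 4 calls held without any 1 library.

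The other calls were less firm. Itga2 differed by 1.16 between P9 and FFSS (adjusted p = 0.0274), with 2.11 to 4.32 FPKM in P9 libraries and 0.0890 to 1.46 FPKM in FFSS libraries. Its call was lost without P9 replicate 1 (0.0671), P9 replicate 3 (0.0888) or FFSS replicate 2 (0.0554). Itga5 differed by 0.36 (adjusted p = 0.0352), with 51.6 to 54.9 FPKM in P9 libraries and 37.6 to 45.0 FPKM in FFSS libraries, and its call was lost without any 1 of 6 of the 9 libraries (adjusted p up to 0.0966).

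For the 5 subunits with groups apart above and the 1 apart below, 22.2% and 20.0% of all genes tested were apart in the same way. Itga8, at 33.3 to 56.3 FPKM in P9 libraries and 13.7 to 35.1 FPKM in FFSS libraries, gave a difference of 0.84 (adjusted p = 0.0933) and was called without FFSS replicate 2 (0.0498). Itgav, at 54.9 to 66.7 FPKM in P9 libraries and 47.9 to 114 FPKM in FFSS libraries, gave -0.52 (adjusted p = 0.215), and -0.92 without FFSS replicate 1 (adjusted p = 0.000926). Itga11 (adjusted p = 0.484) and Itgb1 (0.535) overlapped between P9 and FFSS.

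The order of levels was led by the same 4 genes in each group: Itgb1, then Itga11, Itgav and Itga5. Of these neighbours, Itgav and Itga5 overlapped at P3 and were apart under FFSS. At P9 the lowest Itgav library, at 54.94 FPKM, and the highest Itga5 library, at 54.93 FPKM, were level within counting error. At P9, Itga5, Itga1, Itga8 and Itga3 formed a run in which each overlapped the next, followed by Itga7, Itga2 and Itgb3, each apart. Under FFSS the run was Itga8, Itga1, Itga3, Itgb3, Itga7 and Itga2, with Itga8 and Itga1 overlapping and Itga7 and Itga2 overlapping. At P3 it was Itga1, Itga3, Itga8, Itgb3, Itga2 and Itga7, with Itga3 and Itga8 overlapping. Itga7 thus stood above Itga2 and Itgb3 at P9 and below both at P3.

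Summed over the 10 genes, integrin RNA held 1213 to 1493 FPKM at P9, 867 to 1474 FPKM under FFSS and 1164 to 1452 FPKM at P3, and the groups overlapped. Shares of the summed level of all alpha chains in the table changed in makeup. Laminin-binding chains took 12.5%, 12.9% and 11.8% of alpha-chain FPKM in P9 libraries, 4.91%, 3.17% and 3.55% in FFSS libraries, and 6.34%, 5.91% and 6.63% in P3 libraries, so the 3 groups were apart. Itga11 alone took 42.3 ± 6.12% at P9, 53.4 ± 1.35% under FFSS and 55.1 ± 2.52% at P3 (SD, n = 3 each). Collagen-binding chains together took 53.0 ± 4.45% at P9, 59.4 ± 1.46% under FFSS and 61.9 ± 2.09% at P3, and P9 libraries were all below P3 libraries. RGD-binding chains took 33.0 ± 3.57% at P9, 35.4 ± 2.56% under FFSS and 30.7 ± 1.39% at P3, and overlapped between P9 and P3. With 3 libraries against 3, an exact two-sided permutation test of such a share cannot go below p = 0.10, so none is given.

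Among beta chains, Itgb1 took 86.1 ± 3.71% of the summed level at P9, 75.4 ± 1.81% under FFSS and 86.2 ± 1.78% at P3 (SD, n = 3 each). Itgb5 took 13.8 ± 3.71% at P9, 23.8 ± 1.82% under FFSS and 12.8 ± 1.63% at P3. Itgb3 took 0.0463% at P9, 0.509% under FFSS and 0.855% at P3 on average. The FFSS libraries were apart from P9 and P3 libraries for Itgb1 and Itgb5.

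**Figure D3:**
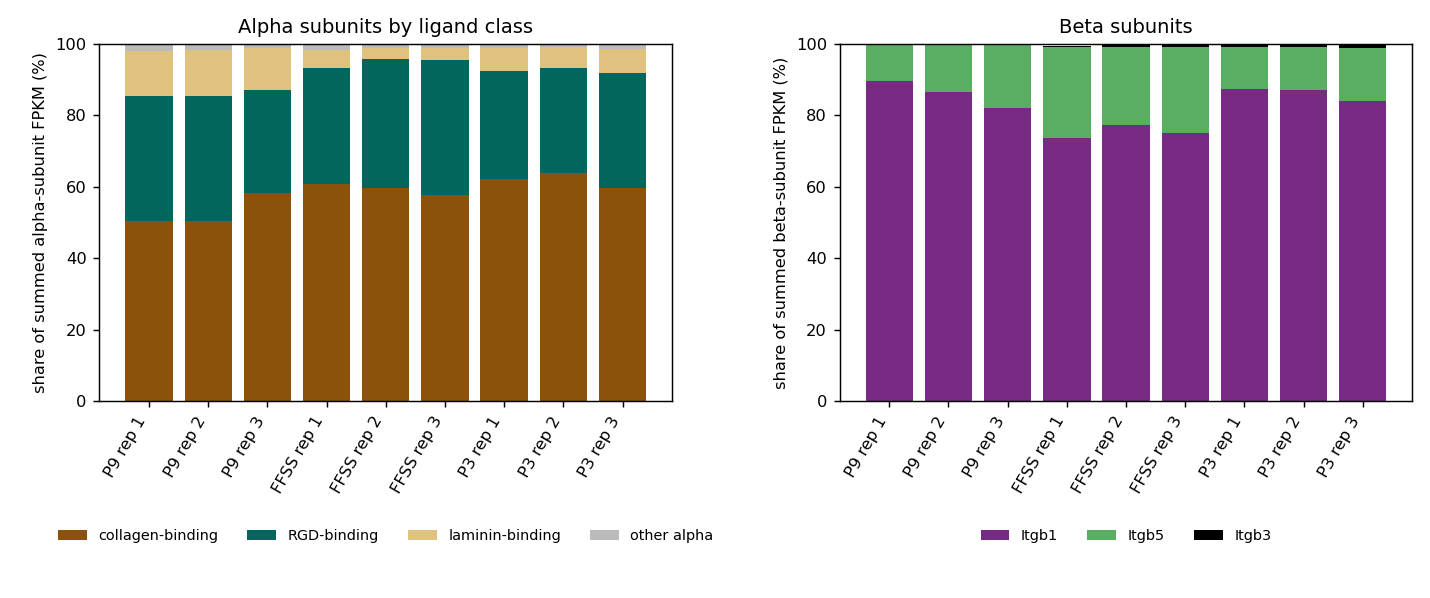
Share of summed alpha-chain FPKM by ligand class (left) and of summed beta-chain FPKM by gene (right), in percent, as 1 stacked bar per library. The laminin-binding share is widest in P9 libraries (11.8% to 12.9%), and the Itgb5 share is widest in FFSS libraries (21.8% to 25.4%).

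Of 16 further integrin genes listed, 15 were in the table and 6 passed the filter; Itgam was not analysed here. In P9 against P3 cells 1 of these 6 was called higher and 1 lower, beside 5.39% and 4.44% of all genes. In FFSS against P3 cells 1 was also called higher and 1 lower, beside 11.4% and 10.4%. Itgb5, which pairs with alphaV to bind vitronectin, held 189, 274 and 261 FPKM in FFSS libraries, against 118, 135 and 145 FPKM in P3 libraries. All FFSS libraries were above P3, with a difference of 0.84 (adjusted p = 0.0117) that lost its call without P3 replicate 1 (0.0543). At P9 Itgb5 held 118, 129 and 161 FPKM, within reach of P3 (difference 0.02, adjusted p = 0.961).

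Itga6, a laminin receptor chain, held 20.5, 16.3 and 14.7 FPKM in P9 libraries, 5.10, 2.50 and 3.75 FPKM in FFSS libraries, and 10.2, 10.6 and 9.997 FPKM in P3 libraries. The 3 groups were apart. FFSS was lower than P3 by a difference of -1.27 (adjusted p = 0.00463), the P9 difference of 0.68 missed the threshold (adjusted p = 0.0748), and P9 exceeded FFSS by 1.95 (adjusted p = 0.000249). The P9 difference was called without FFSS replicate 1 (0.0193) or FFSS replicate 2 (0.0230).

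Itga9, which binds tenascin-C and related ligands, held 0.118, 0.232 and 0.179 FPKM in P9 libraries, 2.60, 2.63 and 2.73 FPKM in FFSS libraries, and 1.76, 1.12 and 2.44 FPKM in P3 libraries. P9 libraries were far below the others, with a difference from P3 of -1.21 (adjusted p = 0.00487). Itga4, a receptor chain for fibronectin and VCAM1, held 6.57, 4.11 and 3.52 FPKM in P9 libraries, 1.82, 0.315 and 0.803 FPKM in FFSS libraries, and 1.19, 1.11 and 1.20 FPKM in P3 libraries. It was higher at P9 by 1.37 (adjusted p = 0.0185), a call lost without P9 replicate 1, P9 replicate 2 or any P3 library (0.0620 to 0.0759).

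Itga10, the collagen receptor chain most tied to cartilage, held 0.407, 0.286 and 0.786 FPKM in P9 libraries, 1.53, 8.09 and 6.37 FPKM in FFSS libraries, and 2.73, 3.38 and 3.19 FPKM in P3 libraries. P9 libraries were all below P3, by a difference of -1.47 that missed the threshold (adjusted p = 0.0601) and passed it without FFSS replicate 1 (0.000890) or FFSS replicate 2 (0.0315). Under FFSS it differed from P3 by 0.44 (adjusted p = 0.481), and by 1.001 without FFSS replicate 1 (adjusted p = 0.00437). Itgae, partner of beta7, was nearly even at 1.27 ± 0.0469 FPKM at P9, 1.21 ± 0.312 FPKM under FFSS and 1.38 ± 0.0605 FPKM at P3 (SD, n = 3 each).

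**Figure D4:**
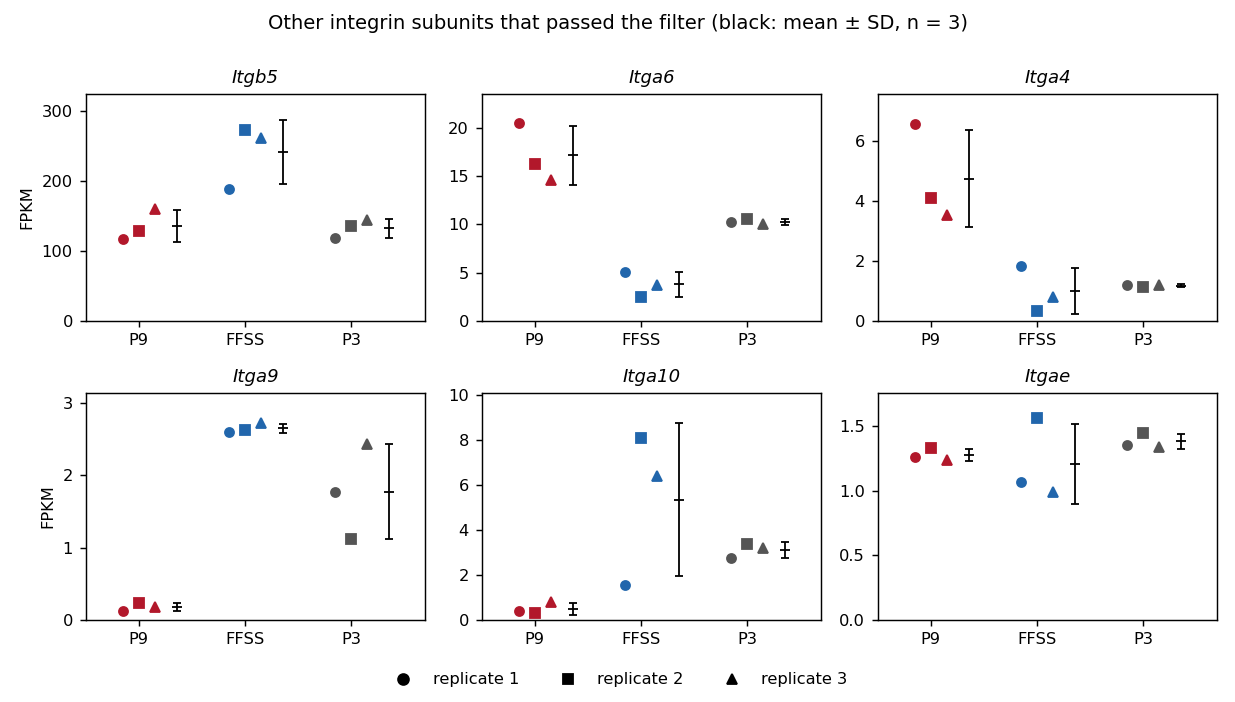
Level in FPKM (vertical axis, from 0) of the 6 other integrin genes that passed the filter, in every P9, FFSS and P3 library, with shapes for replicates and black bars for the mean ± SD of 3 libraries. Itgb5 is highest under FFSS (189 to 274 FPKM), Itga6 and Itga4 are highest at P9, and Itga9 is near 0 at P9 (0.118 to 0.232 FPKM).

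Of 29 adaptors and kinases that link integrins to actin and passed the filter, 13 were called higher at P9 than at P3, beside 5.39% of all genes tested, and 0 lower, beside 4.44%, with a median difference of 0.50 against -0.00262 for all genes tested. The count of higher calls was 5 without P9 replicate 2 or without any 1 of the P3 libraries. Over all genes, calls in either direction fell as well, from 1284 to 589 without P9 replicate 2. Without P3 replicates 1, 2 and 3 they fell to 618, 830 and 626. Counts of the lists below with 1 library left out are to be read beside such shifts over all genes. The 16 not called include the talin Tln1, the focal adhesion kinase Ptk2 and Src. Lims2, an adaptor that binds integrin-linked kinase, held 41.9 ± 4.27 FPKM at P9 and 10.8 ± 2.21 FPKM at P3 (SD, n = 3 each; difference 1.87, adjusted p = 0.000265). Paxillin, Pxn, a scaffold of focal adhesions, held 31.1 ± 3.22 FPKM at P9 and 12.7 ± 0.836 FPKM at P3 (1.22, adjusted p = 0.00148). Vinculin, Vcl, which joins talin to actin, held 276 ± 80.7 FPKM at P9 and 110.3 ± 6.74 FPKM at P3 (1.28, adjusted p = 0.00319). Ptk2b, a kinase related to focal adhesion kinase, held 4.49 ± 0.823 FPKM at P9 and 0.952 ± 0.483 FPKM at P3 (1.51, adjusted p = 0.00314).

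Under FFSS 4 of these 29 were called higher than at P3, beside 11.4% of all genes tested, and 5 lower, beside 10.4%, with a median of -0.22 against -0.01. Nedd9, a docking protein of focal adhesions, held 51.7 ± 3.90 FPKM under FFSS and 17.8 ± 2.99 FPKM at P3 (1.49, adjusted p = 0.000620). Its relative Bcar1 held 61.7 ± 11.9 FPKM under FFSS and 30.2 ± 3.59 FPKM at P3 (0.998, adjusted p = 0.00641). Tns1, a tensin that binds beta chains, fell by 0.62 under FFSS (adjusted p = 0.00875), and Tns2 rose by 1.04 (adjusted p = 0.0121), a call lost without FFSS replicate 3 (0.0502). The lower count was 11 without FFSS replicate 1, where 39.0% of all genes were called in either direction, 1 without FFSS replicate 3, P3 replicate 1 or P3 replicate 2, and 2 without P3 replicate 3. Over all genes, calls in either direction fell from 2845 to 1398 without FFSS replicate 3. Without P3 replicates 1, 2 and 3 they fell to 1178, 1307 and 1476.

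Ligands moved in both directions. Of 13 collagen and laminin chains tested, 1 was called higher and 4 lower at P9 than at P3, beside 5.39% and 4.44% of all genes, with a lower count of 2 without any 1 of the P9 or P3 libraries or FFSS replicate 3. Lama5, the laminin chain that alpha3 and alpha6 receptors bind, held 22.1, 19.1 and 13.6 FPKM in P9 libraries, against 0.993, 1.93 and 0.401 FPKM in P3 libraries. The groups were far apart (3.23, adjusted p = 0.000304). Lama5 passed the filter only through its P9 libraries, since outside P9 only P3 replicate 2 reached 1 FPKM. Its call is therefore a description. Lama2, the laminin chain of muscle and nerve, was lower at P9 by a difference of -1.77 (adjusted p = 0.00272), and Col1a1, the main chain of type I collagen, by -1.03 (adjusted p = 0.00391). Under FFSS 0 were called higher and 2 lower, beside 11.4% and 10.4% of all genes, Col1a1 at -1.15 (adjusted p = 0.00231) and Lama2 at -0.98 (adjusted p = 0.0237); the call of Lama2 was lost without FFSS replicate 2 or 3 or any P3 library.

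Of 12 RGD and matricellular ligands tested, 4 were called higher and 1 lower at P9 than at P3, beside 5.39% and 4.44% of all genes. The higher count was 2 without P3 replicate 1 and 1 without P3 replicate 3, and the lower count was 0 without P9 replicate 1, P9 replicate 2 or P3 replicate 1. Postn, periostin, held 1569 ± 282 FPKM at P9 and 298 ± 31.2 FPKM at P3 (2.38, adjusted p = 0.000447). Under FFSS 1 was called higher and 5 lower, beside 11.4% and 10.4% of all genes. The higher count was 2 without FFSS replicate 1 or P3 replicate 3, and the lower count was 2 without P3 replicate 1 or P3 replicate 2. Fn1, fibronectin, held 1134 ± 293 FPKM under FFSS and 2231 ± 90.3 FPKM at P3 (-1.01, adjusted p = 0.00784). Npnt, nephronectin, held 7.08 ± 2.85 FPKM under FFSS and 18.9 ± 0.506 FPKM at P3 (-1.37, adjusted p = 0.00731). Spp1, osteopontin, held 1252 ± 183 FPKM under FFSS and 636 ± 113 FPKM at P3 (0.98, adjusted p = 0.00987).

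Of 12 inhibitors and trafficking factors tested, 3 were called higher and 0 lower at P9 than at P3, beside 5.39% and 4.44% of all genes. These P9 counts ran from 2 to 4 higher and from 0 to 1 lower with 1 library left out. Under FFSS 2 were called higher and 2 lower, near the 11.4% and 10.4% of all genes. With 1 library left out, the FFSS counts ran from 0 higher (without P9 replicate 2, FFSS replicate 3 or any P3 library) to 5 higher (without FFSS replicate 1), and the lower count was 1 without FFSS replicate 2, FFSS replicate 3 or any P3 library; the higher count was also 1 without P9 replicate 3 or FFSS replicate 2. Kank1, which binds talin at the rim of focal adhesions, held 35.6 ± 3.56 FPKM at P9 and 8.24 ± 1.39 FPKM at P3 (1.99, adjusted p = 0.000522), and its relative Kank4 held 6.83 ± 1.21 FPKM at P9 and 0.698 ± 0.0426 FPKM at P3 (2.19, adjusted p = 0.000781). Kank4 passed the filter only through its P9 libraries, since outside P9 only FFSS replicate 2 (1.78 FPKM) reached 1 FPKM. Its call is therefore a description. Of 13 lateral partners tested, 2 were called higher and 1 lower at P9, beside 5.39% and 4.44% of all genes, with Cav1, caveolin-1, at 1.63 (adjusted p = 0.00176) and Slc3a2, a heavy chain that binds beta1, at -0.66 (adjusted p = 0.00263). The lower count at P9 was 2 without FFSS replicate 1 or FFSS replicate 2. Under FFSS 4 were called higher and 0 lower, beside 11.4% and 10.4% of all genes, among them the tetraspanin Cd81 at 0.78 (adjusted p = 0.00241) and the syndecan Sdc4 at 1.37 (adjusted p = 0.00516).

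**Figure D5:**
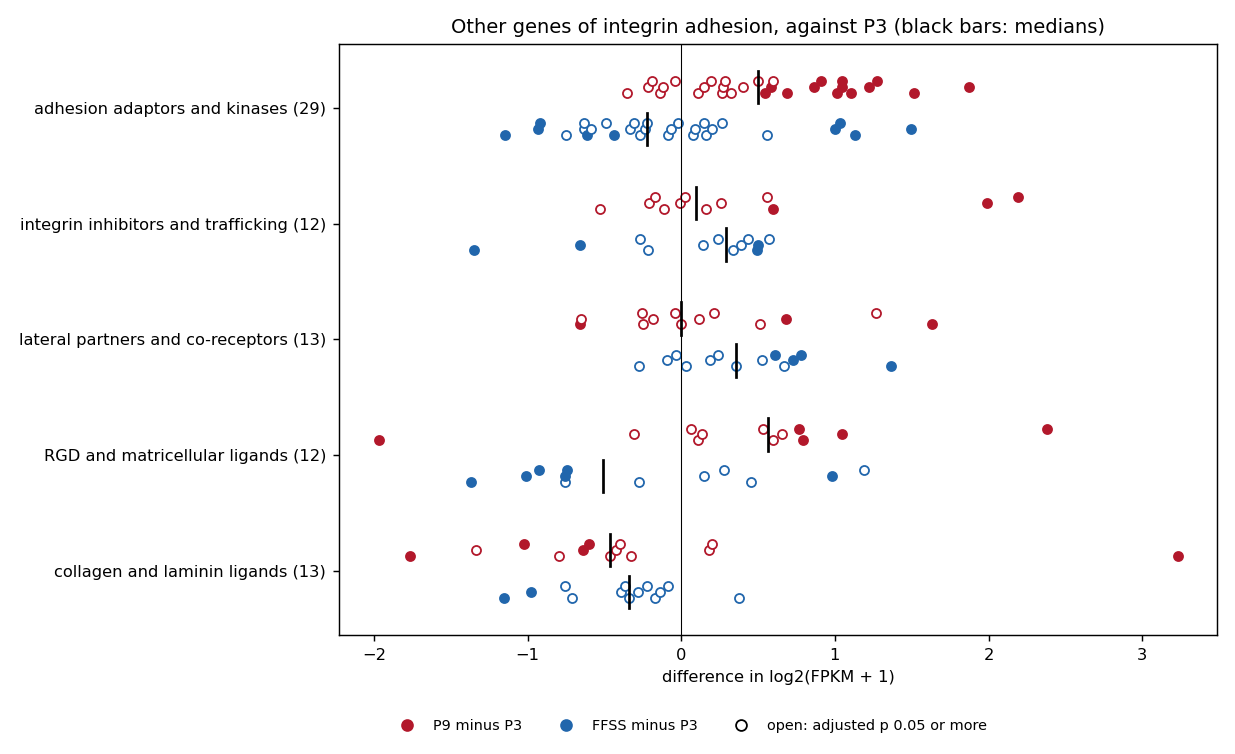
Difference from P3 in log2(FPKM + 1) units (horizontal axis) for each tested gene of 5 lists of adhesion genes (rows, number tested in brackets), P9 in red above FFSS in blue, filled where the adjusted p is under 0.05; black bars are list medians. The adaptors and kinases lie to the right at P9 (median 0.50) and slightly to the left under FFSS (median -0.22), and Lama5 at 3.23 is the point farthest right.

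Some markers of contractile cells were higher in the same P9 libraries in which Itga1, Itga3, Itga7, Itga8 and 13 adaptors were higher. The summed level of 9 smooth muscle and pericyte genes was 4410 to 5641 FPKM at P9, 1286 to 1908 FPKM under FFSS and 1572 to 1922 FPKM at P3, most of it Acta2, smooth muscle actin, at 4304, 4917 and 3865 FPKM at P9 and 1576, 1674 and 1444 FPKM at P3. Of the 7 tested, 4 were called higher at P9 than at P3 and 0 lower, beside 5.39% and 4.44% of all genes, and the higher count was 2 without any 1 P9 library or P3 replicate 1. The called genes include Notch3, at 2.68, 2.48 and 1.20 FPKM at P9 and 0.226 to 0.398 FPKM at P3. It passed the filter only through the P9 libraries, so it was not tested without any 1 of them. Des, desmin, held 0.438, 0.422 and 0.796 FPKM at P9 and 1.25, 2.37 and 0.249 FPKM at P3, and the pericyte marker Rgs5 was at 0 in every library. The 7 skeletal muscle genes in the table summed to 43.9 to 51.0 FPKM at P9, 10.1 to 40.3 FPKM under FFSS and 8.66 to 18.7 FPKM at P3, and Myog was at 0 at P9 and P3. Most of this sum at P9 was Acta1, skeletal muscle actin, at 42.5, 35.1 and 38.6 FPKM, against 7.64, 13.8 and 2.45 FPKM at P3, while Tnnt3 (adjusted p = 0.908) was not called. The call of Acta1 was lost without P9 replicate 1 (adjusted p = 0.0581) or P9 replicate 2 (0.0501). Myh1 held 4.53, 4.87 and 2.98 FPKM at P9 and 0.243 to 0.356 FPKM at P3, and passed the filter only through the P9 libraries. What part these contractile genes had in the integrin differences was not tested. The 9 cartilage genes summed to 785 to 814 FPKM at P9, 493 to 594 FPKM under FFSS and 952 to 1066 FPKM at P3, nearly all of it Acan and Col11a1, which differed from P3 in opposite directions at P9 (Acan 2.12, adjusted p = 0.000288; Col11a1 -1.90, adjusted p = 0.000524).

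Markers of other cell types were low at P9 and P3 and in part higher under FFSS. The 7 endothelial genes in the table summed to under 1 FPKM in every library, with Cdh5, Tie1, Emcn and Cldn5 at 0 throughout, and the 6 epithelial genes summed to at most 2.13 FPKM. The 7 leukocyte genes summed to 5.14 to 5.66 FPKM at P9, 42.3 to 106 FPKM under FFSS and 9.60 to 11.1 FPKM at P3, and most of this was Cd14, at 39.9, 94.3 and 67.5 FPKM under FFSS. Lyz2 held 0.0562, 5.36 and 2.94 FPKM in FFSS libraries, against 0.171 to 0.305 FPKM at P3. Csf1r held 0.0840, 3.17 and 2.08 FPKM in FFSS libraries, against 0.0182 to 0.187 FPKM at P3. Cd68 held 2.11 to 2.60 FPKM under FFSS and 0.533 to 0.873 FPKM at P3. Ptprc held at most 0.0400 FPKM and Aif1 at most 0.153 FPKM in any library, and Cd163 was at 0 in all. Itgb2, the beta chain of leukocyte integrins, held at most 0.305 FPKM in any library. The 4 Schwann cell genes summed to 18.1 to 26.5 FPKM at P9, 64.6 to 89.9 FPKM under FFSS and 15.2 to 28.8 FPKM at P3. What part these played in the FFSS values of the integrins was not tested.

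The genes most like Itgb3 and Itga2 across the 9 libraries were found among 8433 tested genes with a mean of at least 5 FPKM, by Pearson's r of log2(FPKM + 1). For Itgb3 these were Fam171b (r = 0.993), Anxa8 (0.987), Ccn5 (0.976), AABR07030544.1 (0.975) and App (0.974). Anxa8, an annexin, held 3.54 FPKM at P9, 21.9 FPKM under FFSS and 42.9 FPKM at P3 on average. AABR07030544.1 begins 292 bases past the end of Itgb3 on the opposite strand, on chromosome 10 from 92783703 to 92793145, and held 1.30 FPKM at P9, 14.3 FPKM under FFSS and 15.8 FPKM at P3. Strandedness is not given in the sources used here, so reads of the 2 genes cannot be told apart where transcripts run on. For Itga2 the nearest were Fgf22 (r = 0.983), Tenm3 (0.975), Adamts1 (0.967), Dcbld2 (0.964) and Sgsm2 (0.963). Adamts1, a matrix protease, held 71.3 FPKM at P9, 43.5 FPKM under FFSS and 114 FPKM at P3. The libraries share groups and depth, so these values are a description.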

How the data were processed

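Polyadenylated RNA was measured in 9 libraries, grouped by the passage and treatment in the labels. The authors deposited FPKM for 34267 genes; HISAT2 2.0.5, featureCounts 1.5.0-p3 and Rnor_6.0 are named in the submitters' processing notes, without settings. Values times gene length were whole multiples of 1 step per library for 100% of values (tolerance 0.01 of a step), which gave the fragments, 13264930 to 15323790 per library. These steps do not follow plain library totals, so the deposited FPKM already carry a further scaling between libraries. A minimum of 1 FPKM in 3 or more libraries kept 13059 genes. Group means of log2(FPKM + 1) were compared in limma 3.58.1 (R 4.3.3), with the 9 libraries in 1 model and a trend in the spread; tests were two-sided, with calls at a Benjamini-Hochberg adjusted p under 0.05; 95% intervals are unadjusted. The fit was tested on simulated data. Tables and figures used Python 3.11.15, NumPy 2.4.6, pandas 2.3.3 and matplotlib 3.10.9.

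The members and gene lists were chosen with earlier results of these data known. The 10 members were always named, further integrins where they passed the filter, and of each other list up to 4 called genes per contrast by smallest adjusted p. Values of Sox9, Col2a1 and the marker genes describe the cells. Alternatives were another pseudocount and filter, scaling by library totals, voom, only the groups compared, a replicate block and each library left out. The values of 1 gene of the inhibitor list are not reported here.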

Additional observations from a re-analysis of the deposited data

How the results depend on the processing

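The 10 subunits in 3 contrasts gave 442 values under the alternatives with the same direction and side of the threshold, 18 that lost a call, 5 that gained one and 12 that changed sign, all uncalled both ways. With 1 library left out, the differences of these ranged for P9 minus P3 from -0.0107 to 0.113 in Itga5 (below 0 without P3 replicate 3), from -0.127 to 0.0544 in Itgav (above 0 without P3 replicate 2 or P9 replicate 2, and at 0.00864 when scaled by library totals) and from -0.173 to 0.0515 in Itgb1 (above 0 without P9 replicate 3 or P3 replicate 2). For FFSS minus P3 they ranged from -0.00748 to 0.123 in Itga1 (below 0 without FFSS replicate 3), from -0.398 to 0.172 in Itga7 (above 0 without FFSS replicate 1) and from -0.113 to 0.245 in Itga11 (below 0 without FFSS replicate 2, FFSS replicate 3 or P3 replicate 3). For P9 minus FFSS they ranged from -0.0441 to 0.365 in Itgb1 (below 0 without FFSS replicate 1). The cause of these changes was not tested. Leaving out 1 library gave 3 to 4 higher and 1 lower calls for P9 minus P3, 0 to 2 higher and 1 to 2 lower for FFSS minus P3, and 3 to 5 higher and 1 to 2 lower for P9 minus FFSS. A filter of at least 5 FPKM left 0 lower calls for FFSS minus P3, since Itga2 was not tested there, and fitting only the 2 groups compared left 3 higher calls for P9 minus FFSS. Same-numbered libraries did not deviate together (r of -0.0408 to 0.0331, against -0.0653 to 0.0608 for different numbers). With 3 libraries per group, this cannot exclude that libraries of the same number share a source. With the replicate block 4 subunits were called higher and 1 lower for P9 minus P3, and Itga5 lost its call for P9 minus FFSS (adjusted p = 0.0656). Over all genes, calls for P9 minus P3 numbered 1284 with all libraries, 589 without P9 replicate 2 and 2466 with only those groups. For FFSS minus P3 they numbered 2845, 5022 without FFSS replicate 1 and 1178 without P3 replicate 1. For P9 minus FFSS they numbered 4100, 5876 without FFSS replicate 1, 2566 without FFSS replicate 3 and 2537 with only those groups. With the replicate block they numbered 982 for P9 minus P3 and 3629 for P9 minus FFSS. The counts of member calls above are to be read beside these. Depth limits Itgb3 at P9 and Itga2 under FFSS, where libraries rest on 5 to 84 fragments.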

Other observations

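Of the integrin genes below the filter, Itgax, an alpha chain of leukocyte integrins, held 1.88, 1.61 and 0.940 FPKM in P9 libraries, 0.286, 0.353 and 0.389 FPKM in FFSS libraries, and 0.142, 0.0931 and 0.0725 FPKM in P3 libraries, and the 3 groups were apart. These values rest on 71 to 120 fragments at P9 and 5 to 10 fragments at P3, and were not tested. Itgb2, its beta chain, held at most 0.0465 FPKM at P9. Itga2b, the platelet alpha chain that pairs with beta3, held 0.405, 1.04 and 1.20 FPKM in FFSS libraries, against 0.0219 to 0.200 FPKM in P3 libraries. Itgb8, another partner of alphaV, spread from 0.138 to 2.74 FPKM within the FFSS group, with FFSS replicate 1 the highest. These genes were singled out after their values were seen.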
